A study of Miniopterus schreibersii with 14 samples.

Results

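Among the transcripts measured in developing hands and feet of the bent-wing bat Miniopterus schreibersii, 60 assembled components were more abundant in one limb in the early limb bud and more abundant in the other limb in every later comparison. A component is a gene-like unit of the transcript assembly and carries only an ID here. They were selected on the scores themselves, from the 13116 of 64618 components whose scores averaged 50 or more across the 14 libraries (called eligible components here). The choice used the log2 of (forelimb score + 1) over (hindlimb score + 1) in 6 matched pairs of pieces. A component qualified when the 3 pairs of stage S14 shared one sign and the 3 later pairs shared the opposite sign, and the 60 with the largest smallest absolute difference were kept. Of the 60, 24 were lower in the forelimb at S14 and higher in the forelimb later (called late-forelimb components here), and 36 were higher in the forelimb at S14 and higher in the hindlimb later (late-hindlimb components). The reversal itself is therefore what the selection required, so limb differences in these pairs are described below with no test.

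Each of the 14 libraries came from a different piece of the autopod, the future hand or foot, with 1 library per piece. At S14 the forelimb bud and the hindlimb bud were each divided into an anterior, a middle and a posterior part. At S15-17 the forelimb gave digit I (the thumb), the interdigital tissue I-II, digits II-V and the interdigital tissue II-V, and the hindlimb gave digits I-V and the interdigital tissue I-V. The fetal stage gave the metacarpals of forelimb digits II-V and the metatarsals of hindlimb digits I-V. No treatment or genotype is named for any library, and the labels do not say whether a library pooled several embryos. The matched pairs set anterior with anterior, middle with middle, posterior with posterior, digits II-V with digits I-V, interdigital II-V with interdigital I-V, and metacarpals with metatarsals; the thumb-side pieces had no partner and were not used in the choice.

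As background, a bat wing and a bat foot start from similar limb buds. In the wing, digits II-V lengthen greatly through growth of their cartilage and bone, and the tissue between them persists as flight membrane, while the thumb stays short and free. In the foot the digits remain short and of similar length, and the tissue between them regresses by programmed cell death, as it does in most mammals. Sets of transcripts that differ between the limbs at these stages are therefore studied for their relation to digit length and membrane. None of the component IDs matched the 22775 genes of the RefSeq name table, so no component is given a gene name or a role, and the dissected tissues could not be checked against marker genes.

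The deposited values are whole-number scores, normalized by the authors, with totals of 9191852 to 11045040 per library. In each library the scores fell on multiples of a fixed step of 1.29 to 2.23, within rounding, for 99.981% to 100% of nonzero values, which gave back 4550754 to 7648427 reads per library. Counting intervals below use these reads at 95% confidence and cover counting error only, since PCR copies are not independent molecules. In such bulk tissue, fewer cells of a type and less RNA per cell cannot be told apart.

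The sign pattern was met by 577 components of the 13116, or 4.399%. In 262 of them the forelimb was lower at S14 and higher later, and in 315 it was the other way round. The same limb was higher in all 6 pairs in 572 components (4.361%), made up of 201 higher in the forelimb and 371 higher in the hindlimb. Reversal across the 6 pairs was thus about as frequent as a constant limb difference, but smaller: the 60th reversing component had a smallest absolute difference of 0.20, against 0.30 for the 60th constant one. The first reversing component reached 1.43 and the first constant one 7.06.

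Most of the 60 reversals were modest. Their smallest absolute log2 difference was at least 1 in 2 components, at least 0.5 in 7, and under 0.3 in 35. At the edge of the selection, the last 2 components inside both had a smallest difference of 0.202, and the next 2 outside had 0.201 and 0.2001, so no gap separated members from the components just outside. The median of the components' mean scores was 142.9 for the late-forelimb set and 154.6 for the late-hindlimb set, against 308.75 over all 13116. The set as a whole was thus of lower abundance than the components it was drawn from, with mean scores from 50.1 to 6928.

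**Figure D1:**
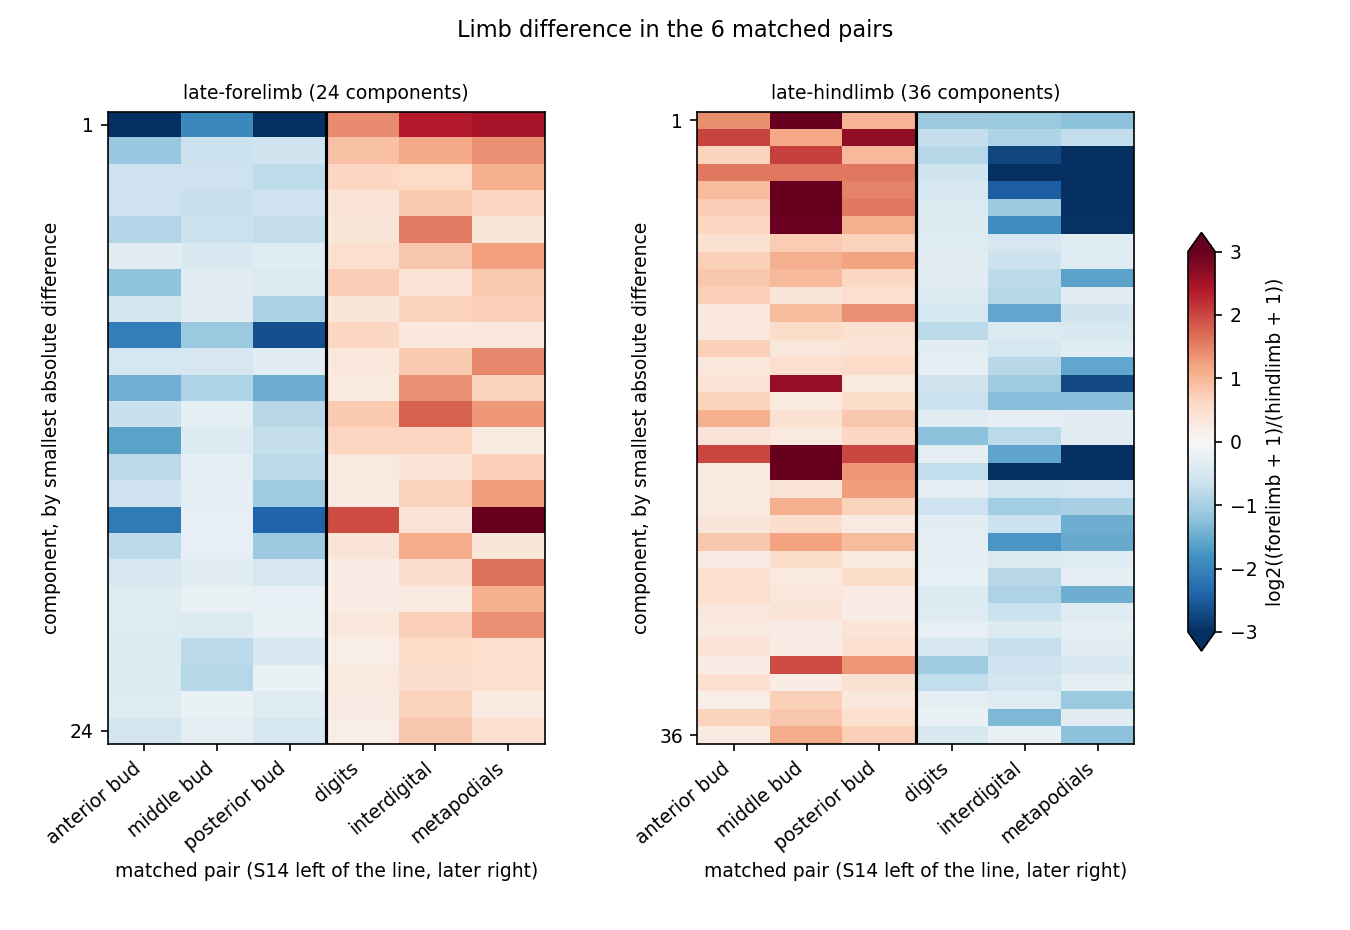
Log2 of (forelimb score + 1) over (hindlimb score + 1) for the 24 late-forelimb and the 36 late-hindlimb components (rows, ordered by smallest absolute difference) in the 6 matched pairs (columns, S14 pairs left of the line). Every row changes colour at the line, as the selection required, later differences are palest in the digits, and colours saturate at the ends of the scale.

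Late-forelimb components had a median log2 difference, forelimb minus hindlimb, of -0.62 in the anterior bud, -0.41 in the middle bud and -0.67 in the posterior bud. Later it was 0.36 in the digits, 0.69 in the interdigital tissue and 0.75 in the metapodials, where metacarpals were set with metatarsals. The middle bud and the digits thus held the smallest differences of this set, and they were the limiting pair in 8 and 9 of the 24 components. At S14 the differences reached -3.60, in the anterior bud. The largest later difference was 6.79, between metacarpals and metatarsals, where the metatarsals were listed at 0; at the floor of 3 reads in the metatarsals this is at least 22.7-fold higher.

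Late-hindlimb components had median log2 differences of 0.48, 0.79 and 0.66 in the anterior, middle and posterior bud. Later the medians were -0.41 in the digits, -0.83 in the interdigital tissue and -0.85 between metacarpals and metatarsals. The extremes were 5.70 in the middle bud and -5.00 in the interdigital tissue, and the largest fetal ratio of metatarsals to metacarpals was 16.0 by (score + 1). Both extremes had a library at 0. At the floor of 3 reads they are at least 8.19-fold, forelimb higher, and at least 6.32-fold, hindlimb higher. With pairs that contain a library at 0 set to their bound, the bud medians were 0.47, 0.71 and 0.63, and a pair with at most 3 reads in both limbs was left out of them. In both sets the digits gave the smallest median later difference, although the direction was opposite.

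The forelimb and hindlimb scores at S14 did not overlap in 19 of 24 late-forelimb components, all with the forelimb lower; 12.5% of eligible components had this arrangement. Among late-hindlimb components the forelimb buds were all above the hindlimb buds in 23 of 36, against 7.95% of components. At S15-17, where each limb had 2 matched libraries, the forelimb was above the hindlimb without overlap in 23 of 24 late-forelimb components (12.9% of components), and below it in 23 of 36 late-hindlimb components (22.3%). These counts follow from the selection and are no evidence of their own.

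The late-forelimb component with the clearest reversal was comp4463_c0. It scored 150, 69 and 174 in the anterior, middle and posterior forelimb bud, against 1825, 267 and 1492 in the hindlimb bud. At S15-17 it scored 416 in digits II-V and 1399 in the interdigital tissue of the wing, against 154 and 268 in the digits and interdigital tissue of the foot, and in the fetus 49 in metacarpals, against 8 in metatarsals. The limbs did not overlap in either embryonic period, and the 2 outer parts of the hindlimb bud and the wing membrane tissue stood highest. Its log2 difference averaged 2.09 ± 0.58 over the later pairs and -2.88 ± 0.85 over the S14 pairs (SD, n = 3 pairs each). The pair nearest to equality was that of the digits, where 239 forelimb reads and 90 hindlimb reads gave a ratio of 2.70 with a counting interval of 2.11 to 3.48.

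The second late-forelimb component by the same measure, comp10978_c0, was of low abundance. It scored 29, 44 and 40 in the forelimb bud, against 65, 69 and 61 in the hindlimb bud. Its later scores were 71 in digits II-V, 109 in interdigital tissue II-V and 17 in metacarpals, against 38, 49 and 6 in the hindlimb pieces. The limbs were apart in both embryonic periods and in the single fetal pair. Mean differences were 1.13 ± 0.24 later and -0.79 ± 0.30 at S14 (SD, n = 3 pairs each). The counting interval excluded equality in 3 of the 6 pairs. Low counts limited the single pairs: in the posterior bud, 25 forelimb and 38 hindlimb reads gave a ratio of 0.660, with a counting interval of 0.382 to 1.12 that includes equality.

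Among late-hindlimb components, comp13231_c0 had the largest smallest difference. Its bud scores were 20, 51 and 63 in the forelimb and 7, 0 and 30 in the hindlimb, anterior to posterior. Later it scored 124 in digits II-V, 178 in interdigital tissue II-V and 5 in metacarpals, against 267, 384 and 13 in the hindlimb. The hindlimb was thus below the forelimb part by part in the bud and above it in each later pair, but the limb ranges overlapped at S14, where the posterior hindlimb bud was above the anterior forelimb bud. The mean difference was -1.14 ± 0.07 later and 2.71 ± 2.59 at S14 (SD, n = 3 pairs each). The counting interval excluded equality in 4 of the 6 pairs of comp13231_c0. The wide S14 spread came with the middle bud, where 28 forelimb reads stood against 0, at least 8.19-fold higher at the 3-read floor. Without that pair the S14 mean was 1.22.

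Component comp8036_c0 scored 85, 48 and 43 in the forelimb bud, against 20, 21 and 6 in the hindlimb bud. Later it scored 77 in digits II-V, 64 in interdigital tissue II-V and 131 in metacarpals, against 127, 122 and 219 in the hindlimb. The limbs were apart at both embryonic periods, with mean differences of -0.79 ± 0.11 later and 1.95 ± 0.75 at S14 (SD, n = 3 pairs each). The hindlimb moved more: with reads pooled by period and scaled as deposited, the ratio of S15-17 to S14 was 1.25 in the forelimb (counting interval 0.917 to 1.70), against 8.22 in the hindlimb (5.41 to 13.0). In comp4463_c0 both limbs moved, with a ratio of 6.99 (6.03 to 8.13) in the forelimb and 0.172 (0.151 to 0.194) in the hindlimb.

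**Figure D2:**
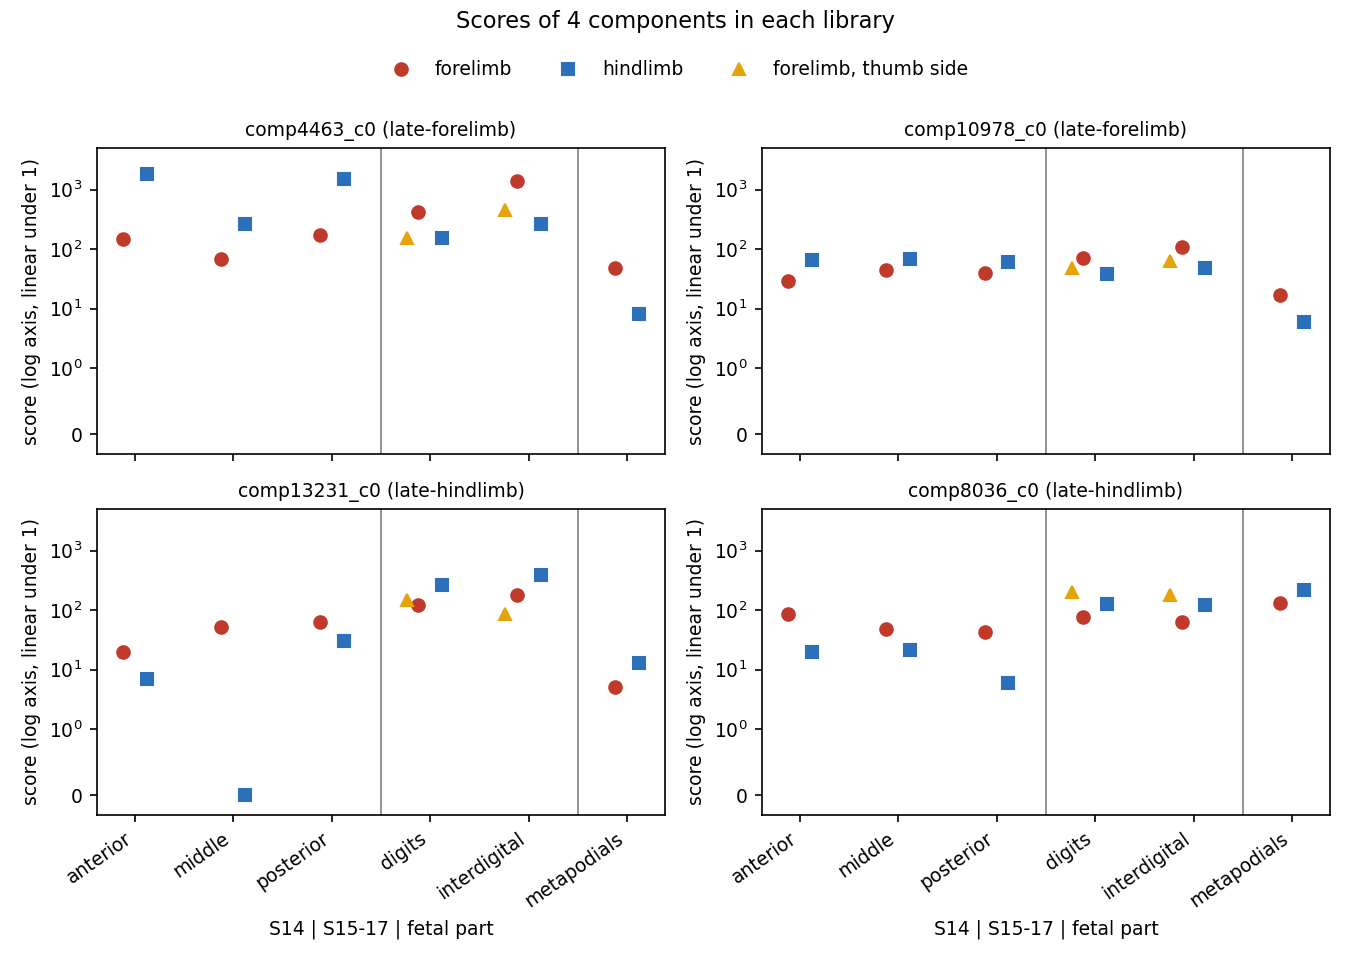
Scores of 4 components, the 2 of each direction with the largest smallest difference, in the matched libraries (circles forelimb, squares hindlimb) and the thumb-side libraries (triangles) (vertical axis logarithmic above 1 and linear below; vertical lines separate S14, S15-17 and the fetal stage). Forelimb points lie below hindlimb points at S14 and above them later in comp4463_c0 and comp10978_c0, and the reverse holds in comp13231_c0 and comp8036_c0.

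Counting error alone covered many of the single differences. A pair is called beyond counting error here when the 95% counting interval of its forelimb to hindlimb ratio excluded equality. This held in 90 of 144 pairs of the late-forelimb set and in 119 of 216 pairs of the late-hindlimb set. By piece, the late-forelimb set had 19, 10 and 18 of 24 such pairs in the anterior, middle and posterior bud, then 8 in the digits, 18 in the interdigital tissue and 17 in the metapodials. For the late-hindlimb set the counts of 36 were 13, 20 and 19 in the bud, 13 in the digits, 29 in the interdigital tissue and 25 in the metapodials. The digits were thus the pair where fewest late-forelimb members were resolved. The choice had ranked components by these same differences, so these counts, and those by component below, follow in part from it. No share over eligible components is set beside them.

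All 6 pairs were beyond counting error in 8 components, 3 late-forelimb and 5 late-hindlimb, and these had mean scores from 95.9 to 4137. In 1 component no pair was, and in 2 late-hindlimb components a pair held at most 3 reads in both limbs. A library at 0 occurred in 1 late-forelimb and 5 late-hindlimb components. The 60 members had 60 different ID numbers, so none was a second fragment of another member by its ID. Of the 6 other components that shared an ID number with a member, 4 were eligible and 0 showed the sign pattern.

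A group of 8 late-hindlimb components, picked out after their values were seen and so described with no test of the group, was over 4-fold higher in metatarsals than in metacarpals. Over all eligible components, 1.85% had such a ratio. The ratio of (score + 1) ran from 6.51 to 16.0 with a median of 9.61. In 8 of the 8 the metatarsals were the highest of the 14 libraries and the metacarpals the second highest. This order is partly a product of the choice. Without the fetal libraries, comp907_c0, comp3552_c0, comp6014_c0 and comp9516_c0 averaged 11.9, 14.6, 25.2 and 29.3, so they were eligible only through these. Scores were 2 to 298 in the middle forelimb bud, 0 to 71 over the parts of the hindlimb bud, in digits II-V 28 to 658 and in the hindlimb digits 43 to 1189.

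The most abundant of them was comp510_c0, which is named for its level and was chosen after its values were seen. It scored 83, 298 and 114 in the forelimb bud, against 52, 71 and 58 in the hindlimb bud. In the fetus it reached 8511 in metacarpals, against 84088 in metatarsals, a ratio by reads of 9.88 metatarsals over metacarpals (counting interval 9.63 to 10.1). At S15-17 it scored 658 in digits II-V and 1189 in hindlimb digits, 79 in interdigital tissue II-V and 527 in hindlimb interdigital tissue. The limbs were apart at S14 and overlapped at S15-17, and the fetal pair differed most.

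Other values of the group are described as they stand. The selection of the whole set had already placed each forelimb bud part above its hindlimb partner, and digits II-V and interdigital tissue II-V below theirs. The middle forelimb bud was above every other bud part in 7 of 8, and tied with its neighbours in comp907_c0. Interdigital tissue II-V of the wing was below each of the other 5 pieces of S15-17 in 8 of 8, at scores of 0 to 79. How often other components had this order is not given here. Within the wing, digits II-V were 4.88 to 31 times the interdigital tissue II-V by (score + 1), with a median of 9.37. On the thumb side, the interdigital tissue I-II scored 17 to 912 and was 3.5 to 47 times the interdigital tissue II-V (median 7.32). The upper ends, 31 and 47, are both those of comp6014_c0. Its interdigital tissue II-V was listed at 0, so these ratios are set by the added 1 and are not measured multiples.

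In the S15-17 digits the group's limb difference was small, with a forelimb to hindlimb ratio of 0.554 to 0.824, beyond counting error in 2 of 8. It was beyond counting error in 6 of 8 in the interdigital tissue and in 8 of 8 in the metapodials. Of the S14 pairs, 6 of 8 in the middle bud were beyond it, 3 of 8 in the posterior bud and 0 of 8 in the anterior bud. Among the 28 other late-hindlimb components the fetal ratio was 1.21 to 3.06 (median 1.39), the middle forelimb bud was highest of the buds in 12, and the metatarsals were highest of the 14 libraries in 12. In those 28, digits II-V were above interdigital tissue II-V in 21, and interdigital tissue I-II was above interdigital tissue II-V in 21. Over all 243 components with the same fetal ratio, which were not selected on the limb bias, the middle forelimb bud was highest of the buds in 35.8%, digits II-V were above interdigital tissue II-V in 70.8%, and interdigital tissue I-II was above interdigital tissue II-V in 73.3%.

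**Figure D3:**
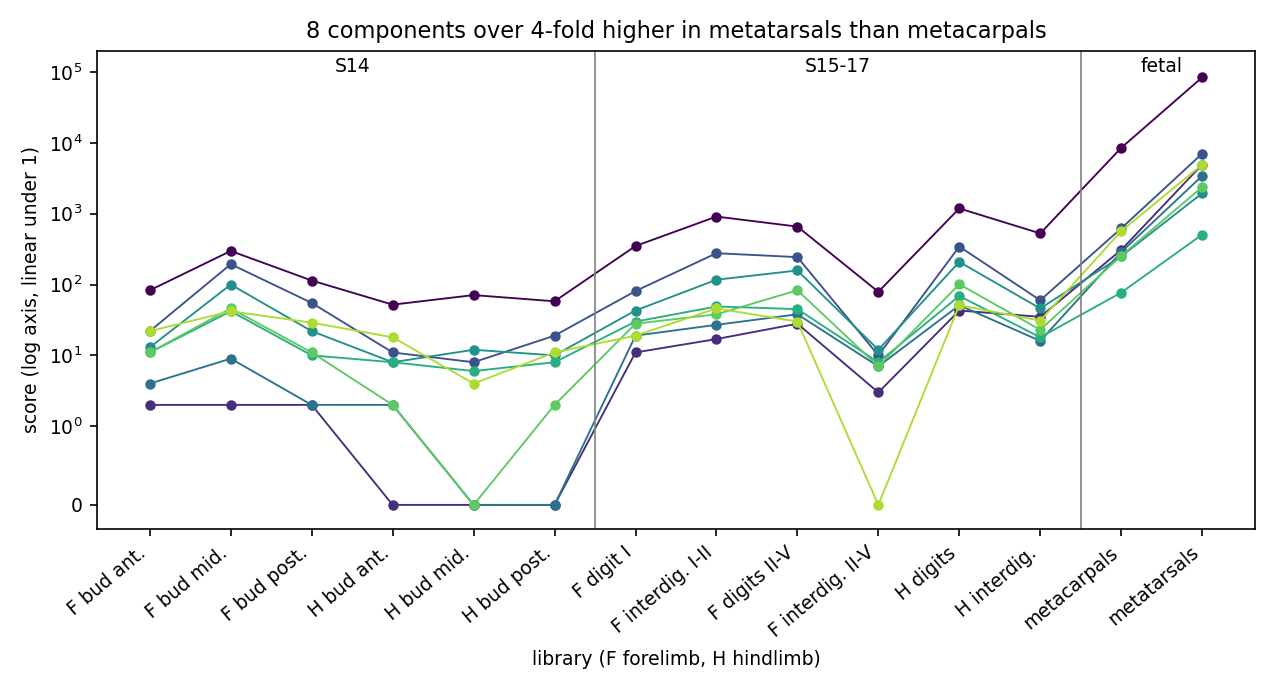
Scores of the 8 late-hindlimb components that were over 4-fold higher in metatarsals than in metacarpals, in each of the 14 libraries (vertical axis logarithmic above 1; each line is a component). The lines dip at the wing interdigital tissue II-V, at 0 to 79, and peak at the metatarsals, at 507 to 84088.

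How the 2 limbs changed between S14 and S15-17 differed within each set. Of the 24 late-forelimb components, 14 were higher in the forelimb and lower in the hindlimb at S15-17 than at S14, 3 were higher in both limbs and 7 were lower in both. The median change was 0.34 in the forelimb and -0.78 in the hindlimb on the log2(score + 1) scale. Of the 36 late-hindlimb components, 10 were lower in the forelimb and higher in the hindlimb, 20 were higher in both and 6 lower in both. Their median change was 0.08 in the forelimb and 1.38 in the hindlimb. The larger absolute change was that of the hindlimb in 14 of 24 late-forelimb and 27 of 36 late-hindlimb components. By the choice, the hindlimb change of a late-hindlimb component had to lie above its forelimb change. The larger gain in the foot of the 20 that were higher in both limbs is therefore a product of the choice. These counts describe selected values, and shares over eligible components were not set against them.

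The change from S14 to S15-17 averaged over the limbs is independent of the limb differences used in the choice, and was tested with limma on log2(score + 1) across the 20429 components whose scores averaged 10 or more. The parts of a limb and period stood in for replicates, so p-values measure the spread between pieces and not between animals. That spread includes how far the limb differences varied over the pairs, which the choice had used. Only the size of the average change is thus independent of the choice, and p-values of members are not free of it. Adjusted p was under 0.05 (Benjamini-Hochberg, over all components tested) in 12 of 24 late-forelimb components, 3 higher and 9 lower at S15-17, and in 21 of 36 late-hindlimb components, 15 higher and 6 lower. The background was 34.8% of all components tested and 40.9% of eligible components, of which 14.5% were higher and 26.3% lower. Median changes were -0.23 in the late-forelimb and 0.63 in the late-hindlimb set, against -0.08 over eligible components. Among called components, the fall was thus the more frequent direction in the late-forelimb set, as over all eligible components, and the rise in the late-hindlimb set.

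These splits moved with the scaling, as did those of all components. With upper-quartile scaling, where 34.0% of components tested passed, the late-forelimb set had 3 higher and 7 lower and the late-hindlimb set 18 higher and 3 lower, against 20.0% higher and 19.3% lower of eligible components. With limma voom on the recovered reads, where 36.7% passed, the late-forelimb set had 5 higher and 6 lower and the late-hindlimb set 19 higher and 2 lower, against 25.2% higher and 16.2% lower of eligible components. A member can also owe its eligibility to the very libraries in which it was high. Among members that averaged 50 or more without the S15-17 digits and interdigital libraries, the calls higher at S15-17 were 3 of 23 late-forelimb and 13 of 34 late-hindlimb components, against 14.2% of eligible components treated the same way. Among those that did so without the S14 libraries, the calls lower at S15-17 were 7 of 21 and 5 of 33, against 25.8%.

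Among called members, comp13231_c0 and comp907_c0 had the largest positive changes. For comp13231_c0 the scores above gave a log2 change of 3.77. It averaged 42.1 without the matched S15-17 libraries (thumb side kept) and was eligible only through these, so the change is given with no test. Both limbs moved: by reads, the forelimb ratio was 3.23 (2.46 to 4.28) and the hindlimb ratio 24.8 (16.3 to 39.6). At S15-17 comp907_c0 scored 28 in digits II-V and 3 in interdigital tissue II-V, against 43 and 35 in the foot. In the S14 bud it scored 2 in each forelimb part, against 0 in each hindlimb part, and its log2 change was 3.58. Its S14 side rests on 3 reads in the forelimb and 0 in the hindlimb, so its bud bias lies within the 3-read floor, while its hindlimb rise was at least 22.2-fold. At such counts the equal scores of the bud parts do not measure a spread between pieces, so this change is given with no test.

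The largest negative changes were those of comp5256_c0 and comp13012_c0, both late-forelimb. Without the S14 libraries they averaged 37.9 and 41.4, below the limit of 50, so their falls are described with no test. Component comp5256_c0 scored 77 in digits II-V and 30 in interdigital tissue II-V at S15-17, and 312, 384 and 202 in the forelimb bud; the hindlimb scored 19 and 22 at S15-17, and 1356, 458 and 1073 in the bud. Its log2 change was -3.96, with ratios by reads of 0.179 in the forelimb and 0.0204 in the hindlimb. Its later forelimb bias therefore stood on a level far below that of either bud. Component comp13012_c0 scored 57 and 76 in the wing pieces at S15-17 and 127, 186 and 214 in the forelimb bud; the hindlimb scored 43 and 44 at S15-17 and 197, 294 and 331 in the bud. Its log2 change was -1.98.

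The average change of comp4463_c0, whose limbs moved in opposite directions, was 0.25 (SE 0.57, limma adjusted p = 0.76) and did not pass. That of comp10978_c0 was 0.32 (SE 0.20, limma adjusted p = 0.243), which did not pass either. Component comp8036_c0 rose by 1.70 (SE 0.35, limma adjusted p = 0.0049).

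**Figure D4:**
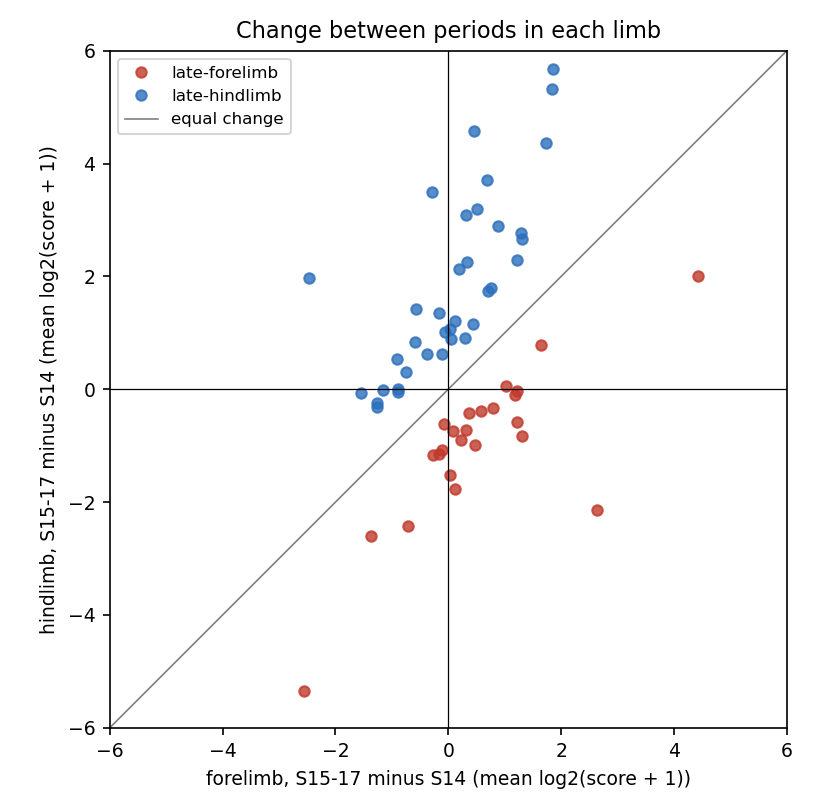
Change in mean log2(score + 1) of the matched pieces, S15-17 minus S14, in the forelimb (horizontal) and the hindlimb (vertical), for the 24 late-forelimb and 36 late-hindlimb components. The diagonal marks equal change; late-forelimb points lie right of it and late-hindlimb points above it, by selection, with 14 late-forelimb points in the quadrant of a forelimb gain and a hindlimb loss and 20 late-hindlimb points in that of a gain in both limbs.

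The fetal metapodials were compared with the S15-17 digits, again averaged over the limbs, with the limb as a block. This fit had 4 libraries and leaned on the spread shared across components. A component's own spread in it was the gap between its limb differences in metapodials and in digits. The choice had required these to share a sign, so p-values of members are not free of the choice. Adjusted p was under 0.05 in 10 of 24 late-forelimb components (2 higher and 8 lower in metapodials) and in 15 of 36 late-hindlimb components (12 higher and 3 lower). The background was 32.3% of components tested and 37.7% of eligible components, of which 13.0% were higher and 24.7% lower. Median changes were -0.78 and 0.77 in the 2 sets, against -0.31 over eligible components. With no filter on low scores 0 of the 60 passed, and 0.0% of all 64566 components did, so that fit called nothing at all. At an unadjusted p under 0.05 the same limma fit passed 31 of the 60, against 5689 of the 13116 eligible components. Among members that averaged 50 or more without the fetal libraries, 2 of 24 late-forelimb and 8 of 30 late-hindlimb components were called higher in metapodials, against 9.89% of eligible components treated the same way. For calls lower in metapodials, none of the 60 depended on the digit libraries for eligibility.

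The largest positive changes among called members were those of comp6014_c0 and comp907_c0, both of the group high in metatarsals. They averaged 25.2 and 11.9 without the fetal libraries and were eligible only through these, so their changes are described with no test. Component comp6014_c0 scored 568 in metacarpals and 30 in digits II-V, and in the hindlimb 4929 in metatarsals and 51 in digits. The log2 change was 5.38. Its interdigital tissue II-V was listed at 0, against 31 in the foot. Component comp907_c0 scored 308 in metacarpals and 4947 in metatarsals, with a log2 change of 5.11.

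The largest falls were those of comp13231_c0, at -4.32, and comp422_c0, at -3.76 (SE 0.34, limma adjusted p = 0.0106). The fall of comp13231_c0 is given with no test, since it averaged 42.1 without the matched S15-17 libraries and was eligible only through these. Component comp422_c0 scored 339 in metacarpals and 7111 in digits II-V, and in the hindlimb 995 in metatarsals and 8714 in digits. Its 3 forelimb bud parts scored 2609, 3893 and 3405, against 2068, 2733 and 2278 in the hindlimb bud, so the limb ranges overlapped there while each part pointed the same way. It was one of the 8 components with all pairs beyond counting error. Thus comp13231_c0 and comp422_c0 were most abundant at S15-17, while the 8 components high in metatarsals were most abundant in the fetus, although both kinds belong to the late-hindlimb set.

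Digits were compared with interdigital tissue at S15-17 within the thumb side, the wing and the foot, a contrast the choice did not use. A component's own spread was the disagreement between these regions. Its wing and foot part came from limb differences that the choice had used, so p-values of members are not free of the choice. In this limma test 0 of the 60 had an adjusted p under 0.05, the smallest being 0.109, and the background was 0.0196% of components tested. At an unadjusted p under 0.05, 1 of 24 late-forelimb and 9 of 36 late-hindlimb components passed, against 8.6% of eligible components. After adjustment, 5 of 60 passed with limma voom on the recovered reads (1.11% of components tested) and 4 of 60 with median-centred libraries (0.964%). Median log2 differences, digits minus interdigital tissue, were -0.07 in the late-forelimb set, positive in 10 of 24, and 0.28 in the late-hindlimb set, positive in 28 of 36. The 8 components high in metatarsals were positive in 8 of 8, at 0.85 to 1.74, but none of these passed.

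The anterior and posterior bud parts were compared with the limb as a block. A component's own spread again came from limb differences that the choice had used. None of the 60 passed in this limma test (0 of 60, smallest adjusted p = 0.708), and the background was 0.0% of components tested. At an unadjusted p under 0.05, 2 of 24 and 5 of 36 passed, against 5.41% of eligible components, and limma voom called 0 of the 60 and 0.0441% of components tested.

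The thumb-side pieces were not used in the choice, but their place between wing and foot is measured against pieces that were, so the next values are a description. Digit I was nearer to digits II-V than to the hindlimb digits in 9 of 24 late-forelimb components (37.5%) and in 25 of 36 late-hindlimb components (69.4%), against 44.2% of all eligible components. For interdigital tissue I-II, the piece nearer in level was that of the wing in 13 of 24 (54.2%) and 15 of 36 (41.7%), against 62.9% of all components. The distance between the wing and foot digits was beyond counting error in only 13 of the 36. Interdigital tissue I-II of late-hindlimb components lay beyond the foot level, away from the wing, in 14 of 36, and digit I lay beyond the wing level, away from the foot, in 16 of 36. A place outside the span of wing and foot was common over all components. Digit I lay between them in 31.6% of eligible, 38.9% of late-hindlimb and 58.3% of late-forelimb components. For interdigital tissue I-II these shares were 42.7%, 44.4% and 79.2%.

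Values of the named components show the same mix. Component comp4463_c0 scored 156 in the thumb and 457 in the tissue beside it, close to the 154 of the foot digits and between the 1399 of the wing and the 268 of the foot. Component comp8036_c0 scored 203 and 176 in these 2 pieces, above both the wing and the foot, and comp13231_c0 scored 145, between wing and foot, and 87, below both. In comp10978_c0 the thumb-side scores of 49 and 62 lay between those of wing and foot in each tissue.

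The thumb side was also tested against the midpoint of wing and foot, which is independent of their difference. The spread in this fit was the same as in the digit test, so p-values of members are again not free of the choice. In this limma test 0 of the 60 passed, with a smallest adjusted p of 0.197 and a background of 0.0538% of components tested. At an unadjusted p under 0.05, 1 of 24 and 5 of 36 passed, against 9.59% of eligible components, and limma voom on the recovered reads called 3 of 60 (0.759% of components tested) and median-centred libraries gave 2 of 60 (0.71%). Median differences were -0.0015 and 0.07 in the late-forelimb and late-hindlimb sets. The log2 difference of comp8036_c0 was 1.01 (SE 0.20, limma adjusted p = 0.274), that of comp13231_c0 was -0.95 (SE 0.29, adjusted p = 0.454), and that of comp4463_c0 was -0.56 (SE 0.21, adjusted p = 0.537).

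**Figure D5:**
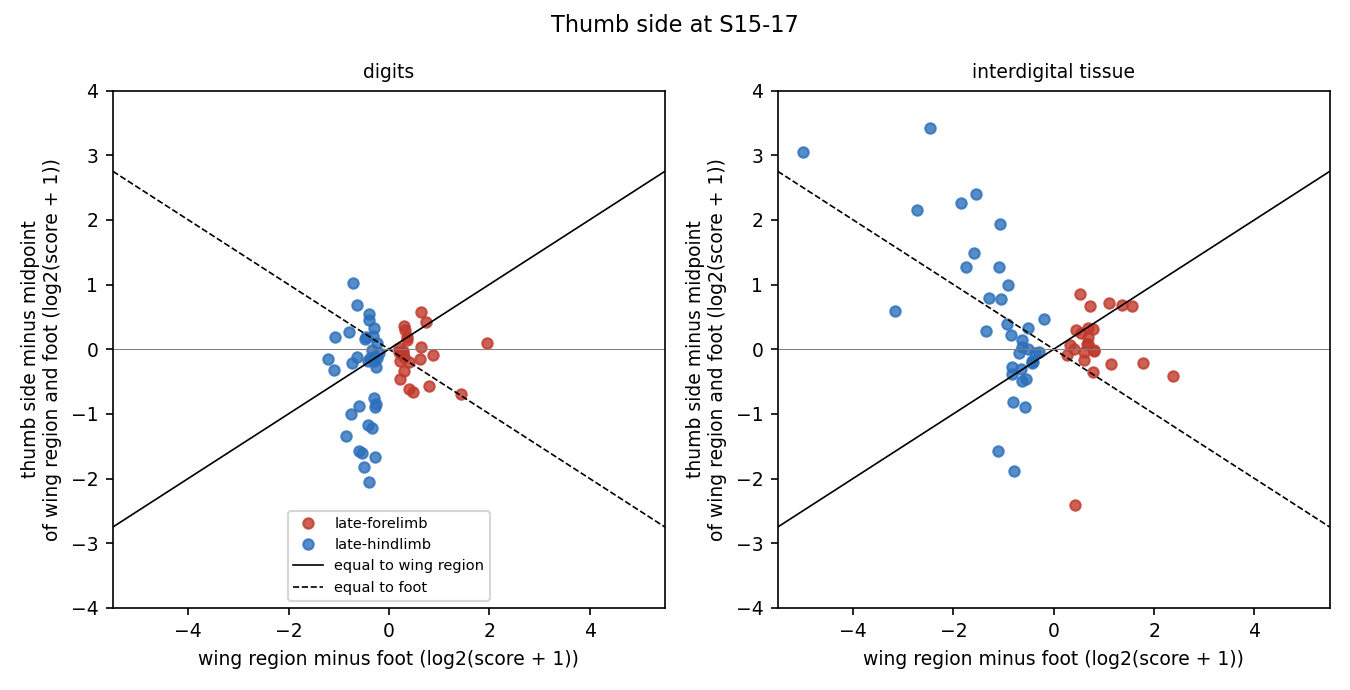
Thumb side minus the midpoint of wing and foot (vertical) against wing minus foot (horizontal), both on the log2(score + 1) scale, for digits and for interdigital tissue at S15-17. Points on the rising diagonal equal the wing piece and points on the falling diagonal equal the foot piece; digit I was nearer to the wing in 9 of 24 late-forelimb and 25 of 36 late-hindlimb components.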

How the data were processed

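Messenger RNA of 14 autopod pieces was sequenced, 1 library per piece. Values are scores that the authors deposited as whole numbers; reads were recovered from their steps as given above. CASAVA 1.8, RSEM and edgeR appear in the submitters' processing notes with no role or order, and how the assembly was made is not stated there. The whole-number step was fitted on scores up to 2000. 5 contrasts were tested on log2(score + 1) with limma 3.58.1 (R 4.3.3) and a mean-variance trend, for components averaging a score of 10 or more (98.95% of all score), with Benjamini-Hochberg adjustment over all 20429. No count model was the main test, since scores are not counts; limma voom on recovered reads was an alternative. A fold change on the log2(score + 1) scale understates changes of low components. Results were also computed with a pseudocount of 0.25 or 5, without the filter, with libraries scaled by upper quartile or median, with libraries left out and, an alternative chosen after seeing the data, over members eligible without the libraries of the higher side. Counting intervals are exact and conditional (Clopper-Pearson, 95%), with a floor of 3 reads. IDs named are the 2 members of each direction with the largest smallest difference, and per test the 2 largest rises and falls among members called; comp510_c0 is the exception. The members and lists were chosen with earlier results of these data known.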

Additional observations from a re-analysis of the deposited data

Results flagged for a closer look

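Opposite limb differences at S14 and later were seen in every one of the 6 pairs in 60 components, 24 of them higher in the forelimb later and 36 higher in the hindlimb later. They stand out because all 3 pairs of S14 moved one way and all 3 later pairs the other way. The components were chosen for this, and the difference between the periods was not tested. The sign pattern occurred in 577 of 13116 components (4.399%), and a constant sign in 4.361%.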

How the results depend on the processing

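Under both rescalings all 60 components kept their sign pattern; a pseudocount, a lower limit or a left-out pair cannot remove it, by construction. How many stayed among the top 60 varied: 49 under upper-quartile scaling, 52 after median-centring, 57 at a pseudocount of 5 and 21 when components averaging 10 or more were admitted. Leaving out each pair in turn kept 17 to 43 of them, with 17 without the digits, 26 without the middle bud, 27 without the metapodials and 35 without the anterior bud. Then 706 to 1661 components met the remaining signs, against 577, with 1661 without the digits, 1260 without the middle bud and 1120 without the metapodials. The S14 to S15-17 test called 33 of the 60, and 25 to 33 when each of the 10 libraries was left out in turn. Upper-quartile scaling split its calls into 21 higher and 10 lower, and limma voom into 24 and 8, against 18 and 15, and the calls of all components moved the same way; these scalings moved the median change of all components to 0.09 and 0.15, against -0.01. The fetal test called 25, and without the filter on low scores 0, as of all 64566 components. Counting only members eligible without the libraries of the higher side, an alternative chosen after seeing the data, left 28 calls in the S14 to S15-17 test and 21 in the fetal test. The digit test called 0, but 4 with median-centred libraries, 5 with limma voom and 0 to 3 when a library was left out, with 3 without digit I and 2 without interdigital tissue I-II. Of the 20429 components tested, 45 were called without digit I and 25 without interdigital tissue I-II. The thumb-side test called 0, but 2 with median-centred libraries, 3 with limma voom and 0 to 0 with a library left out. The cause of these shifts was not tested. All 4 named components lost their call in the unfiltered fetal test, and the later difference of comp13231_c0 moved by more than its spread over pairs with a pseudocount of 5. Libraries could not be left out of the fetal and the anterior to posterior tests, which then have no residual degrees of freedom. No paired analysis was possible because each piece has 1 library and the labels give no replicate numbers to pair. The limb or region block in the fits pairs pieces, not replicates. Without it the fetal test called 21 of 60, against 5330 of the 13116 eligible components. At scores near the floor of 3 reads, depth limits the single pairs.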
